A study of Homo sapiens with 10 samples.

Results

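Subtelomeric DNA, taken here as the terminal 1 Mb of the autosomes, held 13588 of the 276417 methylated-DNA peaks that the authors called on chromosomes 1-22 over 5 peak lists. A peak was assigned to an end when its midpoint lay within 1 Mb of the first or last base of the GRCh38 chromosome. The short arms of chromosomes 13, 14, 15, 21 and 22 were not used, which left 39 ends, 17 on short (p) arms and 22 on long (q) arms. The peaks came from sequencing of immunoprecipitated methylated DNA (MeDIP-seq) in HEK293T, an established human embryonic kidney cell line. Sonicated genomic DNA was captured with an antibody against 5-methylcytosine, and each of the 5 conditions had 2 samples, a captured library and an input library. The conditions are labelled WT, EV and KD, the last given as a knockdown of KCNQ1OT1_K in the series' design. There was a knockout labelled K rep KO and another labelled K non-rep KO.

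What EV, K, rep and non-rep stand for, and whether the knockout cells are single clones, is not said in the labels. KD was set against EV and each KO against WT, a pairing that follows the order of the conditions in the design and is not stated by the labels. There was 1 list per condition, so the spread between replicates is unknown and no difference between conditions could be tested. Intervals below cover counting error only, and they are too narrow because neighbouring peaks are not independent of each other. KCNQ1OT1, an imprinted non-coding RNA of the short arm of chromosome 11, starts more than 1 Mb from that chromosome's end and is not in the stretch described here.

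Subtelomeres lie between the telomere repeats and the unique sequence of a chromosome arm. Their outermost part is a patchwork of blocks copied between chromosomes, with gene families such as DDX11L, WASH and the olfactory receptors, and the neighbouring stretch is often rich in genes, G and C bases and short tandem repeats. The D4Z4 repeat arrays near the ends of 4q and 10q carry copies of DUX4, a transcription factor gene of early development, and are normally methylated in somatic cells. In the human genome most CG dinucleotides are methylated, while the CG-dense promoters known as CpG islands are mostly unmethylated. A MeDIP peak therefore needs both methylation and enough CG dinucleotides in a fragment.

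Promoter windows that were called in every list give a few examples of such places at chromosome ends. Only 0.462% (K rep KO) to 0.865% (KD) of end peaks lay in promoter windows, so these do not stand for end peaks in general. Each window is 300 bases of RefSeq sequence (GRCh38.p14), running from 250 bases before to 50 after an annotated transcription start and read 5′ to 3′ on the gene's own strand. CG dinucleotides are in capitals. Of 1038 promoter windows in the ends, 8 overlapped a peak in all 5 lists, and 5 of them are shown. Another window of DPH7 is among the 8 but not shown, and it lies under the same peaks as the DPH7 window below. The last line is a contrast with no peak in any list, the promoter of EHMT1, which encodes a histone H3 lysine 9 methyltransferase.
LINC01115 (chr2:868377-868676, minus strand, 2p): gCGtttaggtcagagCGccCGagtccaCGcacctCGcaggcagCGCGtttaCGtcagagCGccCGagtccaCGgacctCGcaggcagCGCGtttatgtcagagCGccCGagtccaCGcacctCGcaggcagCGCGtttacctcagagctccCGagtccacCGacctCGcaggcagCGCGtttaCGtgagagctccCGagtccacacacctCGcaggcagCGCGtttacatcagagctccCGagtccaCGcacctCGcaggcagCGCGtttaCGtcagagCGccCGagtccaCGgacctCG
LOC100996637 (chr2:495563-495862, plus strand, 2p): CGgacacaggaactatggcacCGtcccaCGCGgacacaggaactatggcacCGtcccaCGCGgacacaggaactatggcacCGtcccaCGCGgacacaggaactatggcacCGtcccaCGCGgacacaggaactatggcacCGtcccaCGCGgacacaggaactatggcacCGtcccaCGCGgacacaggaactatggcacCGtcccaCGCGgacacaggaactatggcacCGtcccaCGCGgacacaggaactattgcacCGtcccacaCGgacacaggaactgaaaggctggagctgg
LOC124901156 (chr5:181450726-181451025, plus strand, 5q): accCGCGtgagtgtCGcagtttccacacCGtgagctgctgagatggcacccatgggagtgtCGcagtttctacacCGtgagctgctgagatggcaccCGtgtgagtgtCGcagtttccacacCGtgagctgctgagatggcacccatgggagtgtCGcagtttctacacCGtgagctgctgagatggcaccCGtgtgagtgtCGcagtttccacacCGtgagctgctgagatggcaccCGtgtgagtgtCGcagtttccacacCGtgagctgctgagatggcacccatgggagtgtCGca
LOC105376509 (chr11:736274-736573, plus strand, 11p): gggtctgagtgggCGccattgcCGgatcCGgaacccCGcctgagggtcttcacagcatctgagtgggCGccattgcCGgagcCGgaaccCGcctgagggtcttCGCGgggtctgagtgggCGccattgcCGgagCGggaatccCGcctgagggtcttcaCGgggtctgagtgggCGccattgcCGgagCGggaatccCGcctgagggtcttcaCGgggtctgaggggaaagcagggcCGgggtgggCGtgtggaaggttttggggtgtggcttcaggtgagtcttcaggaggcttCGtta
DPH7 (chr9:137578876-137579175, minus strand, 9q): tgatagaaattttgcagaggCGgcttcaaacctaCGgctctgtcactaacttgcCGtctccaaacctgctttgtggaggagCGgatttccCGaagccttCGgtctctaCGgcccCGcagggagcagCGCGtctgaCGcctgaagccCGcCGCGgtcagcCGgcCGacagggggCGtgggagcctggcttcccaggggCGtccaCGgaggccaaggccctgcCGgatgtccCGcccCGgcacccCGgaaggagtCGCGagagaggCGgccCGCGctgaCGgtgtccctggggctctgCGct
EHMT1 (chr9:137618755-137619054, plus strand, 9q): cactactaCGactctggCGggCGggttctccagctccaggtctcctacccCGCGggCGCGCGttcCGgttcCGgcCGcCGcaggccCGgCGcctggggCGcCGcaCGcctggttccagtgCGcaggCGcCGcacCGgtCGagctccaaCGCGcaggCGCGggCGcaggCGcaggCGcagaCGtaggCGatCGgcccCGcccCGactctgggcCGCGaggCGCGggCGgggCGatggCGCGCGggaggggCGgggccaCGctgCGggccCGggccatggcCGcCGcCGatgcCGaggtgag

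The first 3 windows are runs of a repeated unit. A window was called a tandem repeat, by a definition chosen after these sequences had been seen, when it matched itself at 80% or more of positions after a shift of 10 to 150 bases. LINC01115, a long non-coding RNA gene, matched itself at 92.9% of positions after a shift of 88 bases and held 40 CG. LOC100996637 matched itself at 94.4% after 30 bases with 27 CG, and LOC124901156 at 97.1% after 94 bases with 18 CG. LOC124900644 on 4p, which is not shown, was the other tandem repeat among the 8 by this definition, at 81.5% after 57 bases. LOC105376509 reached 63.0% after 54 bases and LOC107984876 on 16p, not shown, 55.5% after 46 bases. Both sequences also repeat a unit. A match after 1 fixed shift misses units of unequal length, so windows not counted as tandem repeats can still hold repeats. The DPH7 window that is shown reached 37.9%, which is below the 43.4% of EHMT1. DPH7 takes part in making diphthamide, a modified histidine of elongation factor 2. Its window held 30 CG and the EHMT1 window 51 CG, yet the first was called in all 5 lists and the second in none.

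Tandem repeats made up 1.54% of the promoter windows in the ends (16 of 1038) and 0.162% of those elsewhere on the autosomes (53 of 32687). Chromosome 8 is in neither number. Of the 16 in the ends, 4 are among the 8 windows with a peak in every list, from which the definition was made, so they are no independent count. Of the other 12, 2 had a peak in EV, 2 in KD and 1 in WT, while K non-rep KO had 2 and K rep KO had 2. Of the 53 elsewhere, which the definition did not use, 10 had a peak in EV (18.9%, Wilson 95% interval 10.6% to 31.4%) and 6 in WT (11.3%, 5.29% to 22.6%), against 4.34% and 0.579% of the windows there that were not tandem repeats. Those 53 windows had a median of 19 CG, and the windows there that were not tandem repeats 13. Of all windows outside the ends with 10 to 19 CG, 12.7% had a peak in EV and 1.58% in WT. The part of CG number in these shares was not tested. Of the 1022 other windows in the ends, 9.39% had a peak in EV (7.75% to 11.3%) and 1.37% in WT (0.818% to 2.29%). Reads from repeated sequence can be placed at more than one copy, and the sources used here do not give the authors' treatment of such reads. The telomere hexamer TTAGGG, searched on both strands (TTAGGG or CCCTAA), occurred in 6.45% of the end windows and in 9.20% of the others.

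Peaks were several times denser in the ends than in the rest of the autosomes in every list. EV had 4333 peaks in the ends and KD 2775, which is 5.08% (Wilson 95% interval 4.93% to 5.23%) and 5.30% (5.11% to 5.49%) of their autosomal peaks. WT had 1167 (3.94%, 3.72% to 4.16%), K non-rep KO 2500 (4.83%, 4.64% to 5.01%) and K rep KO 2813 (4.91%, 4.74% to 5.09%). The WT list was the shortest and had the lowest share, and its interval did not overlap those of the other 4. Per Mb of ends there were 111 peaks in EV, 71.2 in KD and 29.9 in WT, while K non-rep KO had 64.1 and K rep KO had 72.1. Outside the ends the densities were 28.5, 17.5, 10.0, 17.4 and 19.2 per Mb in the same order, so that the ends were 2.98 (WT) to 4.07 (KD) times as dense. Peaks covered 8.52% of the ends in EV, 5.01% in KD and 2.62% in WT, while K non-rep KO had 4.55% and K rep KO had 5.25%.

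Single peaks in the ends were much like peaks elsewhere. The authors' fold enrichment, a ratio of the signal at a peak's summit to the caller's background, had medians in the ends from 4.28 (KD) to 4.45 (both KO lists), against 4.07 to 4.42 outside. The number of fragments stacked at the summit, worked out from the deposited fold and p-value, had medians of 10 to 13 in the ends and 10 to 14 outside. Median width in the ends was 568 bp in EV, 529 bp in KD and 622 bp in WT, while K non-rep KO had 512 bp and K rep KO had 529 bp. In WT the peaks outside the ends were wider, with a median of 756 bp, while in the other lists the outside medians were 503 to 519 bp. Numbers of reads per library are not in the lists, so a short list and a shallow library cannot be told apart.

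Within an end the peaks were unevenly placed. The outermost 100 kb had 33.8 peaks per Mb in EV, 22.3 in KD and 11.5 in WT, while K non-rep KO had 20.0 and K rep KO had 23.6. Between 300 kb and 1 Mb the densities were 137, 87.1, 36.1, 79.0 and 88.3 per Mb. Each list was thus more than 3 times as dense in the inner stretch as in the outermost 100 kb, where blocks copied between chromosomes are common and reads may be placed at several copies. Density did not stop at 1 Mb: EV had 4656 peaks between 1 and 2 Mb against 4333 in the first Mb, and KD 2971 against 2775. K non-rep KO (2622 against 2500) and K rep KO (2907 against 2813) were likewise fuller between 1 and 2 Mb, while WT was not (1008 against 1167). Between 9 and 10 Mb the densities had fallen to 45.4 per Mb in EV, 26.2 in KD and 14.5 in WT, while K non-rep KO had 27.6 and K rep KO had 29.2.

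**Figure D1:**
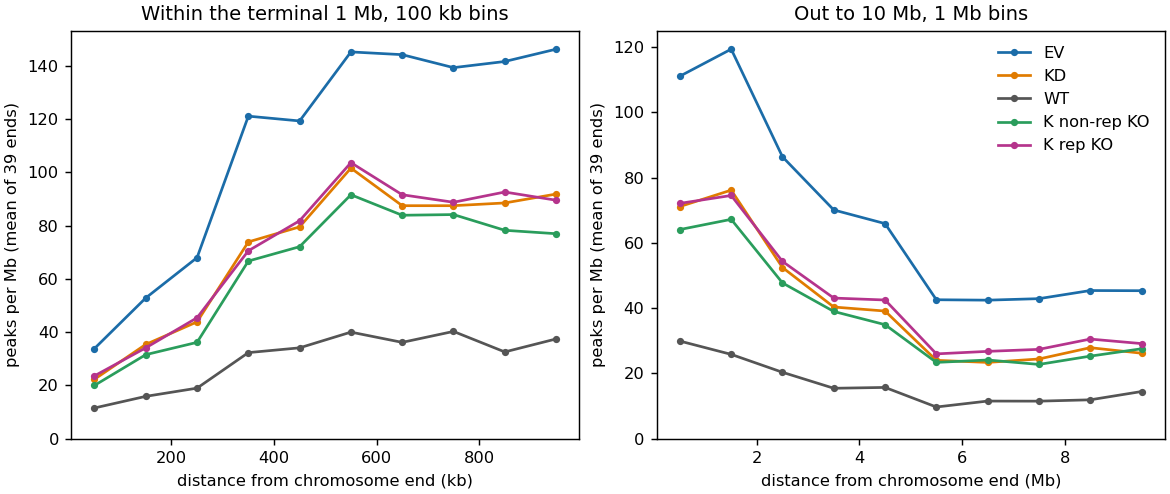
Peaks per Mb (y axis, mean over 39 ends) against distance from the chromosome end (x axis), in 100 kb bins within the terminal 1 Mb (left) and in 1 Mb bins out to 10 Mb (right). Each line is 1 peak list; in the left panel all 5 are lowest in the outermost 100 kb, and WT is the lowest line throughout.

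The 1 Mb limit passed through continuous signal. The peak just inside it was a K rep KO peak on 4p, 999951 bp from the end with a fold of 3.27, and the one just outside was a K rep KO peak on 10q, 1000009 bp from the end with a fold of 4.02. Within 10 kb of the limit there were 126 peaks inside, with a median fold of 4.37, and 161 outside, with a median fold of 4.41. Long-arm ends were slightly denser than short-arm ends: 117 against 104 peaks per Mb in EV, 73.5 against 68.1 in KD and 30.8 against 28.8 in WT, while K non-rep KO had 66.8 against 60.6 and K rep KO had 76.8 against 66.1.

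The ends themselves ranged widely in their number of peaks. The 16p end, which holds the alpha-globin cluster, was the fullest in EV (274 peaks), KD (185) and K non-rep KO (164), with 68 in WT and 169 in K rep KO. The fullest in WT was 19p with 77 peaks, against 229 in EV and 172 in KD, while K non-rep KO had 150 and K rep KO had 161. The fullest in K rep KO was 22q with 212 peaks, against 234 in EV, 178 in KD and 60 in WT, while K non-rep KO had 161. These 3 ends stood near the top of every list, as did 12q with 224, 168, 65, 157 and 166 peaks in EV, KD, WT, K non-rep KO and then K rep KO.

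At the other extreme, the 14q end, where RefSeq lists no gene of the protein-coding type and where the immunoglobulin heavy chain segments lie, had 0 peaks in all 5 lists. The 1q end holds 32 protein-coding genes, of which 27 are olfactory receptor genes, yet it had 3 peaks in EV, 3 in KD and 3 in WT, while K non-rep KO had 2 and K rep KO had 4. The 3p end, with 1 protein-coding gene, had 3, 1, 2, 3 and 2 peaks in the same order. Over the 39 ends the median was 105 peaks in EV, 65 in KD and 29 in WT, while K non-rep KO had 61 and K rep KO had 70. The number of peaks at an end went with its number of protein-coding genes, with Pearson's r from 0.507 (K rep KO) to 0.602 (KD) and Spearman's rho from 0.561 to 0.645. This is a description over 39 ends of the same libraries, and gene-rich stretches are generally rich in G and C bases too.

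**Figure D2:**
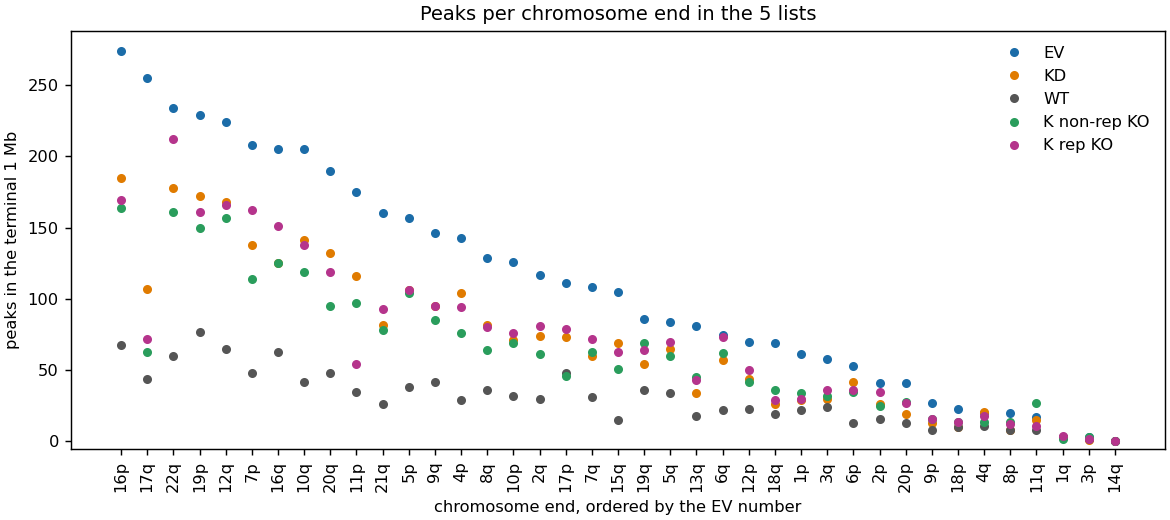
Number of peaks in the terminal 1 Mb (y axis) at each of the 39 chromosome ends (x axis, ordered by the EV number), with 1 point per list. The EV points lead from 274 at 16p down to 0 at 14q. At 17q EV (255) lies far over every other list (44 in WT to 107 in KD). At 11p WT (35) and K rep KO (54) lie lowest, under EV (175).

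The ends were not alone in being full. Of 2826 other 1 Mb windows, the fullest held 311 peaks in EV and 248 to 260 in the other lists. The 90th percentile of those windows was 76 peaks in EV, 46 in KD and 25 in WT, while K non-rep KO had 45 and K rep KO had 49, and 21 (WT) to 24 (both KO lists) of the 39 ends reached it. The order of the ends was much alike between lists, with Spearman's rho between pairs of lists from 0.917 to 0.980 over 39 ends. The 10 fullest ends of each list held 48.2% (WT) to 52.7% (KD) of its end peaks.

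Peaks in the ends lay mostly in gene bodies. In EV 70.7% of end peaks had their midpoint in the body of a protein-coding gene, in KD 69.2% and in WT 63.9%, with 67.9% for K non-rep KO and 68.4% for K rep KO, while such bodies make up 51.1% of the length of the ends. Outside the ends the shares were 55.5%, 52.4%, 41.2%, 51.6% and 51.4% in the same order, against 41.9% of the length. Of the 657 protein-coding genes of the ends, 294 (44.7%) had a peak in their body or within 2 kb of it in all 5 lists, against 28.2% of the 18312 others. End genes are shorter, with a median of 13.7 kb against 25.5 kb.

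The genes with the most peaks over the 5 lists were DIP2C, ANKRD11, PRKAR1B and NXN. DIP2C, on 10p (chr10:274201-689668), held 74 peaks in EV, 49 in KD and 17 in WT, while K non-rep KO had 43 and K rep KO had 47. ANKRD11, a chromatin regulator gene on 16q, held 51, 36, 15, 35 and 38 peaks, and PRKAR1B, a regulatory subunit of protein kinase A on 7p, held 50, 33, 13, 33 and 40. NXN, the nucleoredoxin gene on 17p, held 53, 31, 14, 17 and 31. EV had the most peaks in each of these 4 genes and WT the fewest. EV was also the longest list and WT the shortest. Of all end genes with a peak in either of these lists, 90.7% had more in EV than in WT. EHMT1 on 9q (chr9:137619005-137836127) held 46 peaks in EV, 33 in KD and 11 in WT, while K non-rep KO had 23 and K rep KO had 31, none of them over the promoter window printed above.

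Promoter windows with a peak were more frequent in the ends than elsewhere. Of the 1038 end windows, 9.83% overlapped a peak in EV (Wilson 95% interval 8.16% to 11.8%), 5.59% in KD (4.35% to 7.16%), 1.83% in WT (1.17% to 2.84%), 5.68% in K non-rep KO (4.43% to 7.26%) and 4.82% in K rep KO (3.67% to 6.29%). Of 32687 windows elsewhere the shares were 4.37%, 2.66%, 0.597%, 1.99% and 2.58%. Windows of intermediate CG number carried most of them. In EV a peak lay over 0 of 136 end windows with fewer than 5 CG, over 14.3% of those with 5 to 9, over 28.3% of those with 10 to 19, over 12.99% of those with 20 to 29 and over 1.71% of the 410 with 30 or more. In K non-rep KO the classes with 5 to 9 and 10 to 19 CG had 14.3% and 12.04%, and in WT no class passed 5.19%, the value at 20 to 29 CG. Of windows with 10 to 19 CG outside the ends, 12.7% had a peak in EV, so in EV the ends differed from elsewhere within that class too. In WT the same class had 1.57% in the ends and 1.58% elsewhere.

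**Figure D3:**
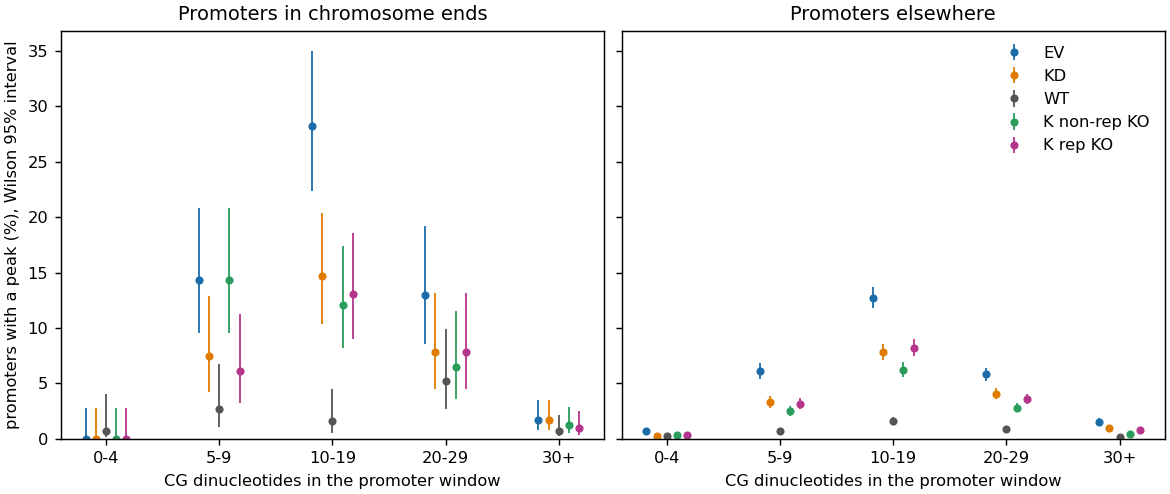
Percent of promoter windows that overlap a peak (y axis, with Wilson 95% intervals) by number of CG dinucleotides in the 300-base window (x axis), for windows in the ends (left) and elsewhere (right), with 1 colour per list. EV in the ends peaks at 28.3% for 10 to 19 CG and drops to 1.71% at 30 or more.

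Strong regions shared by every list were found at several ends. Peaks of the 5 lists that overlapped by at least 1 bp merged into 6215 end regions. Of these, 554 (8.91%, Wilson 95% interval 8.23% to 9.65%) had a peak in all 5 lists, against 7.86% of 133868 regions outside, and 2943 (47.4%) were in 1 list, against 57.0% outside. Regions in 1 list had a median width of 419 bp and regions in all 5 of 1743 bp. EV alone accounted for 1393 of the 1-list regions.

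The region whose smallest fold over the lists was highest lay in AHRR (chr5:356375-359869, 5p), which encodes a repressor of the aryl hydrocarbon receptor. Its fold was 28.9 in EV, 21.2 in KD and 17.5 in WT, while K non-rep KO had 18.6 and K rep KO had 18.2. A region in DOCK8 (chr9:320097-322453, 9p), a guanine nucleotide exchange factor of immune cells, had 28.2, 15.3, 18.2, 31.5 and 16.6. The next lay near DLL1 (chr6:170212535-170221138, 6q), a Notch ligand gene, was 8604 bp wide and had folds of 35.4, 15.1, 21.2, 15.3 and 44.4. No condition was highest in all 3 regions.

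The other 7 regions chosen this way lay in SDHA and near PLEKHG4B on 5p, in PCGF3 on 4p, EXOC2 on 6p, PTPRN2 on 7q, YBEY on 21q and KCNG2 on 18q. SDHA encodes the catalytic subunit of succinate dehydrogenase and PCGF3 a Polycomb group protein. The PCGF3 region (chr4:744919-748775) contains the LOC124900644 window, and its folds were 15.96 in EV, 13.4 in KD and 16.2 in WT, while K non-rep KO had 13.1 and K rep KO had 20.1. The YBEY region (chr21:46292545-46294685) had summits of 208 fragments in EV, 158 in KD and 148 in WT, while K non-rep KO had 129 and K rep KO had 184, where the median summits of end peaks were 10 to 13. The widest region, 11545 bp near TARS3 on 15q (chr15:101752829-101764373), had summits of 163 to 209 fragments but folds of only 4.07 to 6.01. A high stack of fragments beside a low fold means that the caller's background was high there too.

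KD had 2775 end peaks to the 4333 of EV, a ratio of 0.640 (exact 95% interval 0.610 to 0.672). Outside the ends the ratio was 0.612, so the ratio in the ends was 1.05 times that elsewhere (0.995 to 1.10). Leaving out each end in turn moved this relative ratio between 1.03 and 1.07. KD peaks covered 1954 kb of the ends and EV peaks 3323 kb. Of the EV end peaks, 41.4% (39.9% to 42.8%) overlapped a KD peak, against 34.7% of EV peaks outside. The EV peaks that overlapped were stronger and wider, with a median fold of 4.79 against 4.11 for those that did not.

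Single ends followed the common ratio with few exceptions. An end was counted as higher or lower when its relative ratio was at least 1.5 in either direction, among ends with 20 or more peaks in both lists together. For KD against EV, 1 of 36 ends was higher (2.78%) and 1 was lower (2.78%). Of 1436 windows of 1 Mb outside the ends, 4.94% were higher and 11.8% lower, so departures were no more frequent in the ends. These shares are not like for like, because counting error passes 1.5 more easily where peaks are few. The 90th percentile of all 2826 windows outside was 76 peaks in EV, under the median of 105 in the ends. The lower end was 18q with 26 peaks in KD and 69 in EV (relative ratio 0.623, 0.376 to 0.979), and the higher one 4q with 21 and 20 (1.71, 0.884 to 3.33). The other extreme ends were 8p and 17q on the low side and 11q and 6p on the high side. The 17q end had 107 peaks in KD and 255 in EV (0.687, 0.541 to 0.862), and set against the rest of chromosome 17 its ratio was 0.682 (0.537 to 0.861). In 17q the largest part lay in TBCD, a tubulin-folding cofactor gene, with 63 peaks in EV, 22 in KD and 7 in WT, while K non-rep KO had 13 and K rep KO had 13.

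**Figure D4:**
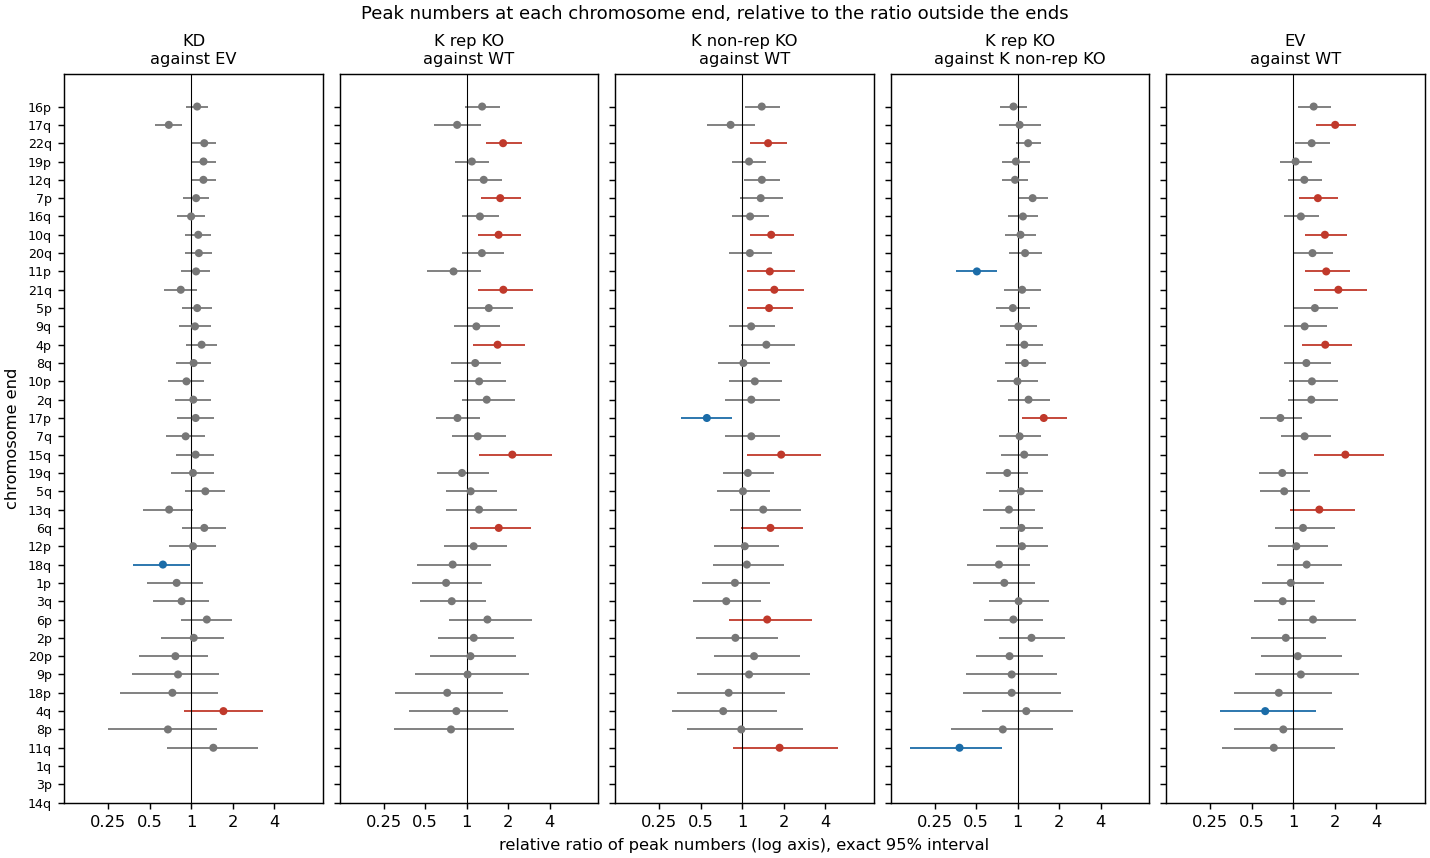
Relative ratio of peak numbers (x axis, log scale, with exact 95% intervals for counting error) at each chromosome end (y axis, ordered by the EV number) for 5 comparisons, where 1 is the ratio outside the ends. Red points are at 1.5 or more and blue points at 1/1.5 or less; ends with fewer than 20 peaks in both lists together have no point, and 11q and 11p stand to the left in the comparison of the knockouts (0.378 and 0.506).

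Among the 553 protein-coding genes of the ends with a peak in either list, 69.1% had fewer peaks in KD than in EV and 15.2% had more, against 67.3% and 14.4% of all 13956 such genes. Of the 220 end genes with 8 or more peaks, those whose numbers were lowest in KD were HDLBP, TMEM255B, TFDP1, DEF8, THAP4, ANO7, TARS3 and WDR45B. HDLBP (chr2:241227291-241315672, 2q) encodes vigilin, an RNA-binding protein, and had 13 peaks in EV, 1 in KD and 0 in WT, while K non-rep KO had 0 and K rep KO had 7. It overlaps ANO7, which had 16, 4, 3, 3 and 10, and a peak in the overlap counts for both. TFDP1 on 13q, the partner of E2F transcription factors, had 12 in EV and 2 in KD, and THAP4 on 2q had 13 and 3. Except for HDLBP (0.00181 to 0.512), the counting intervals of these 8 lowest genes included the ratio of 0.612 outside the ends.

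More peaks in KD than in EV were found at PIGG, MISP, ADM2, ZNF251, CYP2W1, ZNF276, LOC124903566 and CHMP1A. MISP, a mitotic spindle positioning gene on 19p, had 10 peaks in KD and 6 in EV. PIGG, of glycosylphosphatidylinositol anchor synthesis, on 4p, had 7 and 4, and ZNF276 on 16q had 10 and 7. For these 8 genes, the highest of the same 220, the counting intervals all included the ratio of 0.612 outside the ends.

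K rep KO had 2813 end peaks to the 1167 of WT, a ratio of 2.41 (2.25 to 2.58), against 1.91 outside the ends and a relative ratio of 1.26 (1.17 to 1.35). K non-rep KO had 2500, a ratio of 2.14 (2.00 to 2.30), against 1.73 outside and a relative ratio of 1.24 (1.15 to 1.33). Both comparisons rest on the same WT list. Both relative ratios were on the other side of 1 when the ends were set against the stretch from 1 to 10 Mb, at 0.929 (0.861 to 1.00) for K rep KO and 0.937 (0.868 to 1.01) for K non-rep KO. In that stretch the KO lists held 2.60 and 2.29 times as many peaks as WT, and beyond 10 Mb 1.76 and 1.60 times. Among the stretches compared, the surplus over WT was largest between 1 and 2 Mb, at 2.88 for K rep KO and 2.60 for K non-rep KO, and smaller in the outermost 100 kb, at 2.04 (1.42 to 2.99) and 1.73 (1.19 to 2.56).

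Most WT end peaks were found again in the KO lists. Of the 1167, 69.6% (66.9% to 72.2%) overlapped a K rep KO peak and 65.7% (63.0% to 68.4%) a K non-rep KO peak, against 62.9% and 59.7% outside the ends. In the other direction, 28.97% of K rep KO end peaks and 30.8% of K non-rep KO end peaks overlapped a WT peak. Outside the ends these shares were higher, at 33.3% and 35.5%. The K rep KO peaks that did had a median fold of 5.72 and a median width of 887 bp, against 4.24 and 466 bp for those that did not.

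For K rep KO against WT, 7 of 35 ends were higher (20.0%) and 0 lower (0.0%), against 23.6% and 15.4% of 1063 windows outside. For K non-rep KO against WT, 9 of 36 were higher (25.0%) and 1 lower (2.78%), against 21.6% and 14.3% of 1030 windows. The share of higher ends was thus near that of other windows in both, although those windows mostly hold fewer peaks. The 15q end had 15 peaks in WT, 63 in K rep KO (relative ratio 2.14, 1.24 to 4.15) and 51 in K non-rep KO (1.92, 1.09 to 3.76). The 21q end had 26 in WT, while K rep KO had 93 (1.84) and K non-rep KO 78 (1.71), and 22q had 60, 212 (1.84) and 161 (1.54). Set against the rest of its own chromosome, 22q stayed past 1.5 in K rep KO (1.54) but not in K non-rep KO (1.34, 0.977 to 1.84). On the low side, K rep KO was lowest at 1p, 18p and 8p and K non-rep KO at 17p, 4q and 3q. The direction at 18p depended on this choice, since K rep KO had 14 peaks there and WT 10, a relative ratio of 0.722 against all peaks outside the ends and of 1.31 (0.540 to 3.32) against the rest of chromosome 18. The 17p end was the 1 lower end, where WT had 48 peaks and K non-rep KO 46 (0.554, 0.361 to 0.847), while K rep KO had 79 there.

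More peaks than in WT were found in 79.1% of end genes for K rep KO and in 78.2% for K non-rep KO, against 73.6% and 70.7% of all protein-coding genes with a peak in either list. Fewer were found in 8.16% and 6.93%, against 10.8% and 12.3%. GAK on 4p, a kinase of clathrin-coated vesicle uncoating (chr4:849277-932316), had 1 peak in WT, 19 in K rep KO, 14 in K non-rep KO, 35 in EV and 26 in KD. TPPP on 5p, a tubulin polymerization gene, had 0 in WT, while K rep KO had 9 and K non-rep KO 8. HCN2 on 19p, a pacemaker channel gene, had 0, 8 and 9 in the same order, and COL6A1 on 21q, a collagen VI chain, 0, 7 and 10. WT was at 0 or 1 in these 4 genes while every other list had at least 5 peaks.

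The remaining genes with the largest surplus in K rep KO were SBF1, PCSK6, ALG12, ESYT2 and RTEL1. PCSK6, a proprotein convertase gene on 15q, had 4 peaks in WT, while K rep KO had 27 and K non-rep KO 14. RTEL1, a helicase that keeps telomeres intact, on 20q, had 1, 10 and 6, and ALG12 on 22q, a mannosyltransferase of protein glycosylation, 3, 21 and 15. For K non-rep KO the list also held CHSY1, CHID1 and ESYT2. Among the genes with the smallest ratios to WT was RPH3AL on 17p, of vesicle exocytosis. RPH3AL had 9 peaks in WT, 7 in K rep KO but 4 in K non-rep KO. RUBCN on 3q, a regulator of autophagy, had 6, 5 and 2 in the same order. In K rep KO the counting intervals of HCN2, ESYT2, RTEL1, RPH3AL and RUBCN included the ratio of 1.91 outside the ends. Those of GAK, TPPP, SBF1, PCSK6 and ALG12 lay above it. In K non-rep KO the intervals of TPPP, CHSY1, ALG12, CHID1, ESYT2 and RUBCN included the ratio of 1.73 outside the ends. Those of GAK, HCN2 and COL6A1 lay above it, and that of RPH3AL lay below it.

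Between the knockouts, K rep KO had 2813 end peaks and K non-rep KO 2500, a ratio of 1.13 (1.07 to 1.19). Outside the ends the ratio was 1.10, and the relative ratio was 1.02 (0.963 to 1.08). Of the K non-rep KO end peaks, 53.0% (51.0% to 55.0%) overlapped a K rep KO peak, against 48.4% outside. By single ends, 1 of 36 was higher (2.78%) and 2 were lower (5.56%), against 5.55% and 8.09% of 1261 windows.

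Both lower ends were on chromosome 11. The 11p end had 54 peaks in K rep KO but 97 in K non-rep KO (relative ratio 0.506, 0.354 to 0.710), beside 35 in WT, 175 in EV and 116 in KD. The 11q end had 11 and 27 (0.378, 0.165 to 0.768), beside 8 in WT, 17 in EV and 15 in KD. K rep KO was thus nearer to WT than to the other knockout at both ends. The rest of chromosome 11 moved with them: K rep KO had 1256 peaks there, K non-rep KO 2022 and WT 1248. Set against the rest of their own chromosome, the ratios were 0.896 (0.625 to 1.27) for 11p and 0.656 (0.293 to 1.37) for 11q. The caller's background also moved: the median background of peaks on the rest of chromosome 11 was 0.707 of that of all peaks outside the ends in K rep KO, against 0.866 in K non-rep KO, 0.909 in EV, 0.897 in KD and 1 in WT. The part of this background in the peak numbers was not tested.

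**Figure D5:**
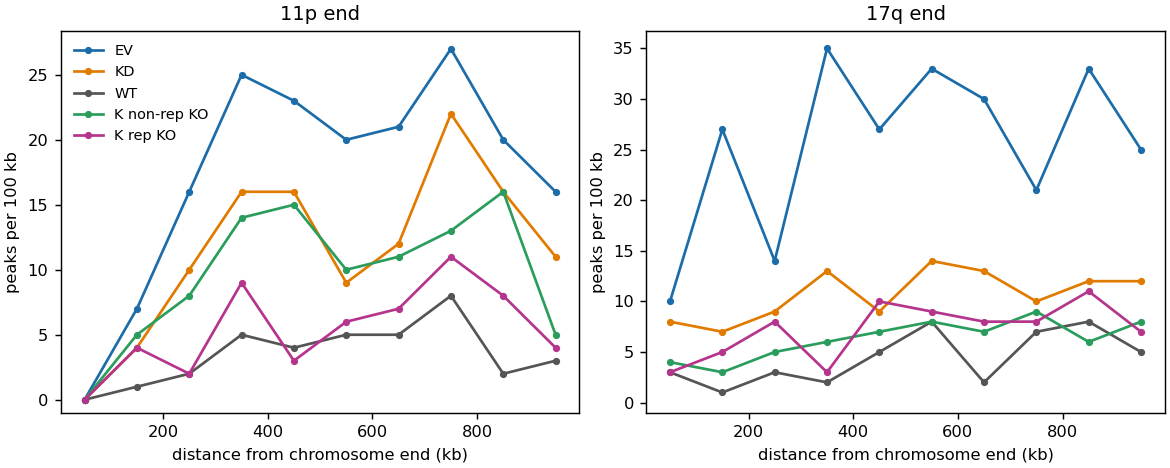
Peaks per 100 kb (y axis) against distance from the chromosome end (x axis) at 11p (left) and 17q (right), 1 line per list. At 11p K rep KO stays at 11 or fewer per bin and K non-rep KO reaches 16; at 17q EV ranges from 10 to 35 while WT ranges from 1 to 8.

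The 37 genes of a list of the 11p end had 154 peaks in EV, 107 in KD and 26 in WT, while K non-rep KO had 84 and K rep KO had 40. Of the 31 with a peak in either knockout list, 24 had fewer peaks in K rep KO than in K non-rep KO (77.4%) and 1 had more (3.23%). Among all protein-coding genes with a peak in either list 33.6% had fewer and 42.9% more, and in the ends 34.1% and 41.1%. These genes lie in the end already called lower from the same peaks, so their shares add no separate evidence. The rest of chromosome 11 also had fewer peaks in K rep KO. PTDSS2, phosphatidylserine synthase 2, had 2 peaks in K rep KO, 9 in K non-rep KO, 14 in EV, 11 in KD and 3 in WT. DEAF1, a transcription factor gene, had 4, 7, 15, 10 and 3 in the same order, and TSPAN4, a tetraspanin gene, 0, 3, 5, 5 and 0. CHID1 had 7 in both knockouts. HRAS, the proto-oncogene, had 1 peak in each of the 5 lists.

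The single higher end was 17p with 79 peaks in K rep KO but 46 in K non-rep KO (1.55, 1.07 to 2.29), beside 48 in WT, 111 in EV and 73 in KD. Against the rest of chromosome 17 its ratio was 1.38 (0.946 to 2.04), which is not past 1.5. VPS53 on 17p, a subunit of a tethering complex of the Golgi, had 18 peaks in K rep KO but 7 in K non-rep KO. SHANK3 on 22q, a scaffold gene of excitatory synapses (chr22:50672823-50733212), had 11 and 3, and SUN1 on 7p, a protein of the nuclear envelope, 19 and 7. ADAP1, ANO7, ADAM8, ZBED4 and SELENOO completed the genes with the largest surplus. Below PTDSS2, the largest deficits were in ADGRA1 (4 against 9), LOC105370092, PANX2 and PRPF6 (3 against 7 each) and CRELD2, GAS6 and SDHA (3 against 6 each). Except for PTDSS2 (0.0234 to 1.07), the counting intervals of the genes with the largest surplus or deficit all included the ratio of 1.10 outside the ends.

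The controls differed from each other by more than either knockout differed from WT. EV had 4333 end peaks to the 1167 of WT, a ratio of 3.71 (3.48 to 3.96), against 2.84 outside and a relative ratio of 1.31 (1.22 to 1.40). Against the stretch from 1 to 10 Mb it was 0.904 (0.842 to 0.972). Of the WT end peaks, 79.0% overlapped an EV peak, against 68.2% outside. In the other direction 21.4% of EV end peaks overlapped a WT peak, against 24.4% outside. There were 8 of 36 ends that were higher in EV (22.2%) and 1 that was lower (2.78%), against 30.3% and 13.4% of 1315 windows. The highest were 15q (105 peaks against 15, 2.39), 21q (160 against 26, 2.13) and 17q (255 against 44, 2.02), and the lowest were 4q (20 against 11, 0.627), 11q and 18p (23 against 10, 0.787). Against the rest of chromosome 18, 18p turned to the high side, at 1.85 (0.842 to 4.38). EV had more peaks than WT in 90.7% of the end genes with a peak in either list and fewer in 2.05%, against 86.7% and 4.09% of all such genes.

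Of the 6 gene lists, the D4Z4 families at 4q and 10q were the one whose peak numbers, summed over members, were larger in KD (75) than in EV (61). A peak near several members counts for each of them in these sums. The stretches below count each peak once, and of them only the 4q stretch had more in KD. The stretch of DUX4 copies on 10q (chr10:133664429-133761135) held 22 peaks in EV, 21 in KD and 10 in WT, while K non-rep KO had 16 and K rep KO had 18. The stretch on 4q (chr4:190021169-190185911) held 11, 16, 4, 6 and 10. In KD the peaks there were longer in sum, covering 19.1 kb on 10q against 11.2 kb in EV, and 9.90 kb on 4q against 5.38 kb. The caller's median background at the 4q peaks was 4.51 fragments in EV and 1.58 in KD, and at the 10q peaks 2.36 and 2.33, and its part in the numbers was not tested. By gene, 13 of the 26 members with a peak in either list had more peaks in KD than in EV and 4 had fewer, beside 17.97% and 62.3% of genes of every type in the ends and 16.2% and 62.8% of all genes, but the copies lie so close together that 1 peak can count for several. No peak was assigned to DUX4 itself in any list. These copies are near-identical, so the placement of reads among them is uncertain.

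The duplicated families of the outermost sequence, among them DDX11L, WASH, FAM157 and CICP, had a peak at 46 of 90 members, beside 1141 of the 1685 genes of every type in the ends. Their peaks numbered 80 in EV, 62 in KD and 29 in WT, while K non-rep KO had 59 and K rep KO had 65, and of the 39 members with a peak in EV or KD 20 had fewer in KD (51.3%) and 9 had more (23.1%), beside the 62.3% and 17.97% of end genes of every type. FAM157C on 16q had 5, 5, 2, 4 and 7 peaks and WASH7P on 1p 5, 3, 0, 2 and 2. Reads of these copies too can be placed at more than one chromosome.

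Zinc finger genes, which encode DNA-binding proteins and cluster near several ends, had a peak at 47 of 53 members, beside 569 of the 657 protein-coding genes of the ends. They held 114 peaks in EV, 82 in KD and 43 in WT, while K non-rep KO had 92 and K rep KO had 82. Of the 46 with a peak in EV or KD, 24 had fewer in KD (52.2%) and 13 had more (28.3%), beside 67.3% and 14.4% of all protein-coding genes. Of 42, 29 had more in K non-rep KO than in WT (69.0%) and 5 had fewer (11.9%), beside 70.7% and 12.3%. For K rep KO against WT, 22 of 38 had more (57.9%) and 9 had fewer (23.7%), beside 73.6% and 10.8%. Between the knockouts, 13 of 43 had more in K rep KO (30.2%) and 20 had fewer (46.5%), beside 42.9% and 33.6%. ZNF605 on 12q had 9, 4, 2, 6 and 7 peaks, and ZNF276 had 7, 10, 0, 5 and 5.

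In the alpha-globin cluster of 16p, 6 of 7 genes had a peak, beside 569 of the 657 protein-coding genes of the ends. The cluster held 21 peaks in EV, 13 in KD and 5 in WT, while K non-rep KO had 14 and K rep KO had 11. NPRL3, whose introns carry the enhancers of the globin genes, held 11, 7, 3, 9 and 7 of them. HBZ, the embryonic globin gene, had 2 in EV and 0 in the other 4 lists. Of the 6 genes with a peak in EV or KD, 3 had fewer in KD (50%) and 0 had more, beside 67.3% and 14.4% of all protein-coding genes. A list of 8 genes of chromatin, telomeres and development, 7 of them in the ends by the midpoint rule, held 115 peaks in EV, 73 in KD and 23 in WT, while K non-rep KO had 51 and K rep KO had 80. K rep KO exceeded WT in all 8 and K non-rep KO in 6, beside 73.6% and 70.7% of all protein-coding genes and 79.1% and 78.2% of those in the ends. CACNA1B, a neuronal calcium channel gene on 9q, had 23, 10, 4, 7 and 14 peaks in EV, KD, WT, K non-rep KO and then K rep KO. Its promoter window, with 49 CG, had a peak in no list, as had the windows of HDAC10, RTEL1, SHANK3 and PDE6B.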

How the data were processed

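DNA methylation was measured by MeDIP-seq in 10 HEK293T samples, with a captured library and its input in each of 5 conditions. The tools named by the authors, per the submitters' processing notes, are Bowtie2, MACS2 and deepTools, and the build is GRCh38. The sources used here do not give versions, thresholds, the treatment of reads with several placements or whether the input libraries served as control. Each condition has 1 peak list deposited by the authors. The deposited fold enrichment is the ratio of summit signal to the background used by the caller. The deposited −log10 p-value and −log10 q-value belong to the same summit, and the deposited score is a whole number on the q-value's scale. A list that no sample label matches by name (1 list) was left out of every step. Peak names inside the 2 knockout lists carry other prefixes than the lists, so their assignment rests on the lists' names.

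Peaks were counted by midpoint in 39 ends of 1 Mb. The summit's fragment number and background were solved from fold = (fragments + 1)/(background + 1) and a Poisson upper-tail p-value (tolerance 0.001), which gave a whole number for 99.8% to 100.0% of end peaks. Relative ratios are end ratios over the ratio outside the ends, with exact intervals, and single ends had 0.5 added to both numbers. Genes came from the RefSeq table of GRCh38.p14, of which 676 of 56752 autosomal entries that were out of chromosomal order were left out. Promoters of chromosome 8 were not used here. The genes named are the 8 lowest and 8 highest per comparison by log2 of peak numbers plus 1, among those with 8 or more peaks, with the members of 6 gene lists. Peak numbers of a gene list are sums over its members, so a peak in or within 2 kb of several members counts for each. The ends named are the 3 lowest and 3 highest, and the regions the 10 with the highest smallest fold and the 5 widest. Members and lists were chosen with earlier results of these data known. Scripts were tested on simulated data and ran in Python 3.11.15 with pandas 2.3.3, numpy 2.4.6, scipy 1.17.1 and matplotlib 3.10.9.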

Additional observations from a re-analysis of the deposited data

Results flagged for a closer look

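The ends of chromosome 11 stood on opposite sides of the common ratio in the knockouts. At 11p the relative ratio to WT was 0.8025 in K rep KO (54 peaks against 35) and 1.586 in K non-rep KO (97 against 35). At 11q it was 0.7072 in K rep KO (11 against 8, fewer than the 20 peaks asked for elsewhere) and 1.869 in K non-rep KO (27 against 8). With 1 list per condition the difference between the knockouts was not tested. On the rest of chromosome 11 K rep KO had 1256 peaks, K non-rep KO 2022 and WT 1248. Set against it, 11p lay above 1 in both knockouts, at 1.533 (0.976 to 2.44) in K rep KO and 1.711 (1.14 to 2.61) in K non-rep KO, so the opposite sides at 11p were not found by that comparison. At 11q K non-rep KO was at 2.083 (0.917 to 5.32), and K rep KO had too few peaks for this comparison.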

How the results depend on the processing

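Numbers below are relative ratios unless stated, and the cause of each move was not tested. Against the stretch from 1 to 10 Mb, an alternative chosen after seeing the data, the ratios to WT turned below 1, to 0.9288 for K rep KO, 0.9373 for K non-rep KO and 0.9044 for EV. With peaks of fold 4 or more, KD against EV gave 1.104, K rep KO against WT 1.155 and EV against WT 1.189. With bases covered in place of peaks they gave 0.9709, 1.406 and 1.61, and K non-rep KO against WT 1.383. Ends of 0.5 Mb gave 1.174 for K rep KO, 1.151 for K non-rep KO and 1.221 for EV against WT, and ends of 2 Mb 1.401, 1.386 and 1.488. Peaks at −log10 q of at least 5 gave 0.9358 between the knockouts. The shares of overlapping end peaks, in the order KD with EV, K rep KO with WT, K non-rep KO with WT, K rep KO with K non-rep KO and EV with WT, were 23.91%, 48.24%, 47.81%, 35.24% and 51.24% when at least 50% of both peaks had to overlap, and 29.3%, 73.67%, 70.57%, 56.72% and 81.72% among peaks whose −log10 q reached 5. Ends of 2 Mb gave 49.41% for the knockouts. Set against the rest of their own chromosome, also chosen after seeing the data, 2 ends in place of 1 were lower in KD than in EV, with 18p added, and 1 in place of 0 was lower in K rep KO than in WT, namely 1p. Between the knockouts 0 ends in place of 1 were higher, without 17p, and 1 in place of 2 was lower, without 11p. The other 43 values were within 1.5 times the reported number of ends, or within the counting interval of the reported ratio or share. Of these, the ratio between the knockouts passed below 1, to 0.999 with fold 4 or more and 0.991 against the stretch from 1 to 10 Mb, and the other ratios stayed on their side of 1. No paired analysis was possible because each condition has 1 peak list. Read depth is not in the lists, and end peaks rest on a median of 10 to 13 fragments at the summit.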
